A study of Mus musculus with 26 samples.

Results

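The genes described here make up the entry point of transforming growth factor beta (TGF-beta) signalling. They are the ligand genes Tgfb1, Tgfb2 and Tgfb3, the receptor genes Tgfbr1 and Tgfbr2, the latent binding protein genes Ltbp1 and Ltbp2, and the integrin subunit genes Itgav, Itgb6 and Itgb8. Members were taken by gene name, as all non-control probes annotated to one of these 10 symbols on an Agilent 1-colour mouse array, which gave 23 of 41174 probes and 10 of 26650 genes. All 10 genes and all 23 probes passed the filter on dim probes. RNA came from the livers of Foxl1-Cre; RosaYFP mice aged 6 to 10 weeks, in which Cre recombinase driven by the Foxl1 promoter permanently switches on yellow fluorescent protein (YFP), so YFP also marks descendants of the cells that once made Cre. Every group used here carries both alleles. Mice of the 6 sorted groups ate the liver toxin 3,5-diethoxycarbonyl-1,4-dihydrocollidine (DDC), which injures bile ducts, for 3, 7 or 14 days, and the CD45-negative part of their non-parenchymal cells (liver cells other than hepatocytes; CD45 is a surface protein of leukocytes) was sorted by YFP into a positive and a negative fraction. Day 0 stands for the whole non-parenchymal fraction from mice on chow, with no sort named, so diet and sort cannot be told apart in any comparison with day 0. Of 26 samples 20 were used. Day 0 had 2 arrays, each YFP-negative day had 3, and YFP-positive days 3, 7 and 14 had 4, 3 and 2 arrays. The other 6 samples were not analysed here.

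TGF-beta is secreted in a latent complex, in which a propeptide keeps the mature ligand inactive. Latent TGF-beta binding proteins such as LTBP1 tether that complex to the extracellular matrix, and the integrins alpha-v beta-6 and alpha-v beta-8 bind the propeptide and free or expose the ligand. Free ligand assembles the receptors TGFBR2 and TGFBR1, which phosphorylate SMAD proteins, and in injured liver the pathway is known for driving matrix production by stellate cells and portal fibroblasts. Integrin beta-6 is known as an epithelial subunit that injured bile ducts express.

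The Itgb6 probe with the clearest difference in the fit over all probes, A_51_P161054, is placed by the array's annotation on chromosome 2 from 60438632 to 60443247 of the mm9 build. That span is longer than its 60 bases, so the probe lies across an exon junction, and it is shown because it reads spliced Itgb6 message. The probe of Tgfb1, A_51_P390715 (chromosome 7, 26489877 to 26489936), is shown for contrast, since Tgfb1 was the member whose fractions differed least. The 250 bases before the annotated start are shown for Itgav and Itgb6, the integrin pair whose levels ran most alike, and for Tgfb1, with GC boxes in capitals (RefSeq, GRCm38.p6). Itgb6 has 2 annotated starts, and the first is shown.
Itgb6 probe A_51_P161054: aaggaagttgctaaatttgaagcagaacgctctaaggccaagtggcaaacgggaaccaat
Tgfb1 probe A_51_P390715: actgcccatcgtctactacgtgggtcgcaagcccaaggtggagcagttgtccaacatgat
Itgav promoter, chr2:83724147-83724396, plus strand: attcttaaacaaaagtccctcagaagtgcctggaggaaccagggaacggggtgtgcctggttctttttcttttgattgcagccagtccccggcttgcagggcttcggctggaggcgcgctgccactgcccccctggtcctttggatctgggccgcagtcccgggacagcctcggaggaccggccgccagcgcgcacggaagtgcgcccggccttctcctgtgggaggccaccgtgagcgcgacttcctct
Itgb6 promoter, chr2:60722604-60722853, minus strand: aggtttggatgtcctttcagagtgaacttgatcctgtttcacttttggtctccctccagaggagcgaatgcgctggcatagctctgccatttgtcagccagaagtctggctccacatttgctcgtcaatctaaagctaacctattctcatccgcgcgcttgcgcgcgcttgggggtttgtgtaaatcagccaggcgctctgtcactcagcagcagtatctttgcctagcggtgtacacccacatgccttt
Tgfb1 promoter, chr7:25686752-25687001, plus strand: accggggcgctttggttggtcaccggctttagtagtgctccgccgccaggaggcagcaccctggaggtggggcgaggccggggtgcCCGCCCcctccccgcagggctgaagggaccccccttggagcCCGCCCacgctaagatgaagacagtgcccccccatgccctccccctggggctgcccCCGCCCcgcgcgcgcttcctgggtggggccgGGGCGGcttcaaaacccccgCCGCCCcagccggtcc

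RefSeq promoters were matched for 9 of the 10 genes (not Tgfb3), 12 promoters in all, and 4 motifs were searched on both strands. The GC box (GGGCGG), which Sp1-type factors bind, occurred 5 times before Tgfb1, 2 times before the first Tgfbr1 start and 2 times before Ltbp2, and 32.7% of 32851 promoters of the same length held it. The AP-1 site (TGANTCA), the palindromic Smad-binding element (GTCTAGAC) and the TEAD site (CATTCC) had no match in any of the 12 windows, against 6.75%, 0.167% and 12.6% of all promoters. The Tgfb1 window was 75.2% G and C, the Itgav window 64.4%, the first Itgb6 window 52.0% and the second 38%. These are letter matches in one short window and say nothing about binding.

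Values are log2 processed signals minus the 75th percentile of their array, called log2 levels here, so that a value of 0 is the signal at that percentile, and levels of different probes are not compared. On each array 81.0 to 91.2% of spots were well above background, and no spot of the 23 probes was saturated. Of the cell type marker lists, the biliary list and the stellate and myofibroblast list differed most between the fractions, with exceptions. Over the mean of days 2 of 10 biliary and 4 of 8 stellate and myofibroblast genes had an adjusted p under 0.05 by limma, against 0.642% of all genes. No gene of the other marker lists did, and the ranges of those lists overlapped. The mean log2 level of 10 biliary genes ran from -0.85 to 3.88 (median 2.39) on YFP-positive and from -2.53 to 1.61 (median -0.85) on YFP-negative arrays, and all 10 were well above background on every array, day 0 included (-0.26 and 0.65). YFP-positive day 3 array 3, at -0.85, lay with the YFP-negative arrays, while YFP-negative day 3 array 3 (1.25) and day 14 array 3 (1.61) lay highest of theirs. The mean of 8 stellate and myofibroblast genes was 0.76 to 2.87 on YFP-negative and -4.12 to 0.68 on YFP-positive arrays, with YFP-positive day 3 array 4 lowest. Endothelial markers spanned 1.30 to 3.65 and -0.04 to 3.66, macrophage markers -0.78 to 4.59 and -2.69 to 4.12, and hepatocyte markers -1.47 to 2.70 and -1.03 to 1.66, in that order of fractions. Lymphoid markers spanned -5.67 to -0.43 and -4.49 to -1.28, and platelet and erythroid markers -3.94 to -0.30 and -4.48 to -1.41. Of the macrophage, lymphoid and hepatocyte lists at least 7 of 8 genes were well above background on every array, so macrophage transcripts were present in both CD45-negative fractions.

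Setting the sorted fractions against each other asked which steps of TGF-beta delivery differed between traced cells and their neighbours. Averaged over the 3 days, Itgav was higher in YFP-positive cells and was the only member to pass the test, and Itgb6 had the largest difference, without passing on its brightest probe. On their brightest probes Ltbp1 and Tgfbr2 were lower in YFP-positive cells in the mean of each day, and Tgfb1 differed by less than its error. By limma, 171 of 26650 genes passed at an adjusted p under 0.05 (0.642%), against 1 of the 10 members. An unadjusted p under 0.05 was found for 6 members and for 5699 genes (21.4%). The median difference was 0.72 over the members and 0.06 over all genes. In sorted bulk samples, fewer cells of a type and less RNA per cell cannot be told apart. No label states that arrays came from separate mice, so the p-values measure the spread between these samples, which may be technical.

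Itgav encodes alpha-v, the subunit shared by the TGF-beta-activating integrins. Its log2 levels in YFP-positive cells were 3.32, 2.48, 1.20 and 4.68 at day 3, 3.28, 2.66 and 2.52 at day 7, and 2.76 and 3.35 at day 14. In YFP-negative cells they were 0.19, 0.53 and 0.96 at day 3, 1.34, 1.68 and 1.32 at day 7, and 0.51, 0.70 and 2.33 at day 14. Every YFP-positive array lay above every YFP-negative array of its day, a pattern found in 24 of 26387 genes (0.091%, with 48 genes or 0.182% below at each day, none of them a member), although the lowest YFP-positive value, of day 3 array 3, lay below 4 YFP-negative values of later days. Itgav rose by 1.87 ± 0.40 (SE) on the log2 scale over the mean of days, 3.65-fold (95% interval 1.01 to 2.73, adjusted p = 0.0494). The call was narrow. It held in 5 of 27 alternative settings, with adjusted p from 0.00888 to 0.463, and the difference stayed between 1.67 and 2.06. With the slide as a fixed block it was 1.71 (adjusted p = 0.463), and within slides that held both fractions, 1 array of each, it was 3.12 on slide 1 (day 3), 1.32 on slide 4 and 1.20 on slide 7 (both day 7).

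Itgav had 6 probes, all of them higher in YFP-positive cells over the mean of days, by 0.36 to 1.87. The brightest, A_51_P382484 (chromosome 2, 83646133 to 83646192 on mm9), was the one that passed, and the next brightest, A_51_P498205, gave 1.35 ± 0.37 (adjusted p = 0.0814 over 39595 probes). The other 4, annotated to cDNA clones, differed by 0.36 to 1.32 and lay nearer to background.

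Itgb6 encodes the beta-6 subunit, which pairs only with alpha-v. Its log2 levels in YFP-positive cells were 0.75, 0.32, -3.30 and 1.46 at day 3, 2.16, 1.13 and -0.51 at day 7, and 1.73 and 1.78 at day 14. In YFP-negative cells they were -4.46, -1.03 and -3.36 at day 3, 0.07, -2.28 and -2.68 at day 7, and -2.90, -1.12 and 0.62 at day 14. The fractions overlapped at days 3 and 7 and not at day 14, where 34.2% of genes did not overlap. YFP-positive day 3 array 3 was the low exception at day 3, and YFP-negative day 7 array 1 and day 14 array 3 were the high values among YFP-negative arrays. The difference over the mean of days was 2.74 ± 0.73, 6.66-fold (95% interval 1.17 to 4.30), which missed the threshold (adjusted p = 0.0749). On this probe it was 2.76 ± 1.17, 2.56 ± 1.25 and 2.89 ± 1.39 at days 3, 7 and 14, and the day 3 value ran from 2 to 3.79 when 1 array was left out, the highest without YFP-positive day 3 array 3 and the lowest without YFP-negative day 3 array 1.

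In the fit over all probes, the exon-junction probe A_51_P161054 of Itgb6, whose sequence is given above, rose by 3.30 ± 0.71, 9.88-fold (adjusted p = 0.0466), where 259 of 39595 probes passed (0.654%). The brightest probe, A_52_P195107 (chromosome 2, 60436536 to 60436595), gave 2.74 and A_52_P93974, well above background on 18 of 20 arrays, 2.27 ± 0.74. The 3 Itgb6 probes had one direction over the mean of days and differed in their course, since A_51_P161054 gave 2.81, 4.15 and 2.95 and A_52_P93974 gave 0.92, 3.40 and 2.48 at days 3, 7 and 14. Of all 23 probes, 16 were positive and 7 negative, and 2 passed, 1 of Itgav and 1 of Itgb6. Within slides, Itgb6 differed by 5.21 at day 3 and by 1.06 and 2.17 at day 7.

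Itgb8 encodes beta-8, another alpha-v partner that activates TGF-beta. In YFP-positive cells its log2 levels were -0.22, -1.71, -5.91 and 1.43 at day 3, -2.08, -4.74 and -6.28 at day 7, and -2.46 and -1.07 at day 14. In YFP-negative cells they were -7.27, -3.95 and -4.59, then -3.26, -5.22 and -6.37, then -5.79, -4.11 and -2.05. The fractions overlapped at every day, and the spread among YFP-positive day 3 arrays (SD 3.14) was the widest of any member in any group. The difference was 2.16 ± 0.95, 4.46-fold (95% interval 0.14 to 4.18, adjusted p = 0.207). It was 3.67 ± 1.51 at day 3 and 0.58 ± 1.61 at day 7, and within slides it was 7.05 at day 3 but -1.48 and 0.09 at day 7. The 7.05 rests on YFP-negative day 3 array 1, whose -7.27 was the lowest and dimmest Itgb8 level on any array. All 3 Itgb8 probes were higher in YFP-positive cells over the mean of days, by 1.11 to 2.16.

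**Figure D1:**
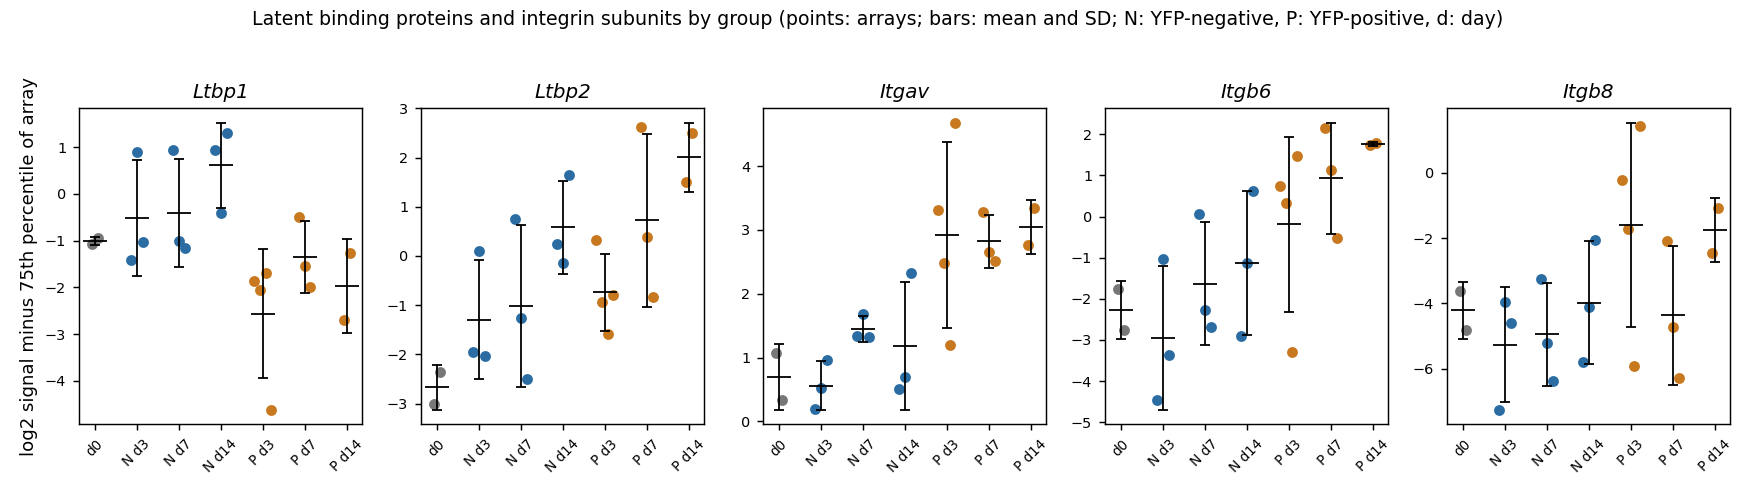
Log2 level (relative to the array's 75th percentile) of Ltbp1, Ltbp2, Itgav, Itgb6 and Itgb8 on 20 arrays in 7 groups, with the mean and SD of each group as bars (d0, day 0; N, YFP-negative; P, YFP-positive; d, day). Itgav sits at 1.20 to 4.68 in YFP-positive and 0.19 to 2.33 in YFP-negative cells, and Ltbp1 at -4.62 to -0.50 and -1.41 to 1.31.

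On several arrays the biliary markers and these 3 subunits were high or low together. YFP-positive day 3 array 3, with a biliary mean of -0.85, had the lowest YFP-positive level of Itgav (1.20) and Itgb6 (-3.30). YFP-positive day 3 array 4, with the highest biliary mean (3.88), had the highest Itgav (4.68) and Itgb8 (1.43). On the other side, YFP-negative day 14 array 3, with a biliary mean of 1.61, had the highest YFP-negative level of Itgav (2.33), Itgb6 (0.62) and Itgb8 (-2.05), and YFP-negative day 3 array 1, with the lowest mean (-2.53), the lowest of each (0.19, -4.46 and -7.27). Other arrays went against this. YFP-positive day 7 arrays 3 and 4, with biliary means of 1.56 and 1.51, had Itgb8 at -4.74 and -6.28, the latter its lowest YFP-positive level, and YFP-negative day 3 array 3, with a biliary mean of 1.25, had Itgav at only 0.53. The part of the biliary markers in these differences was not tested. Without YFP-positive day 3 array 3, singled out after its markers were seen, 4 members passed, where 1219 genes did (4.57%). These were Itgav (2.06, adjusted p = 0.00888), Itgb6 (3.08, adjusted p = 0.0164), Ltbp1 (-1.95, adjusted p = 0.0455) and Tgfbr2 (-1.02, adjusted p = 0.0475). Without YFP-negative day 14 array 3 the Itgav difference was 2.06 (adjusted p = 0.0391).

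**Figure D2:**
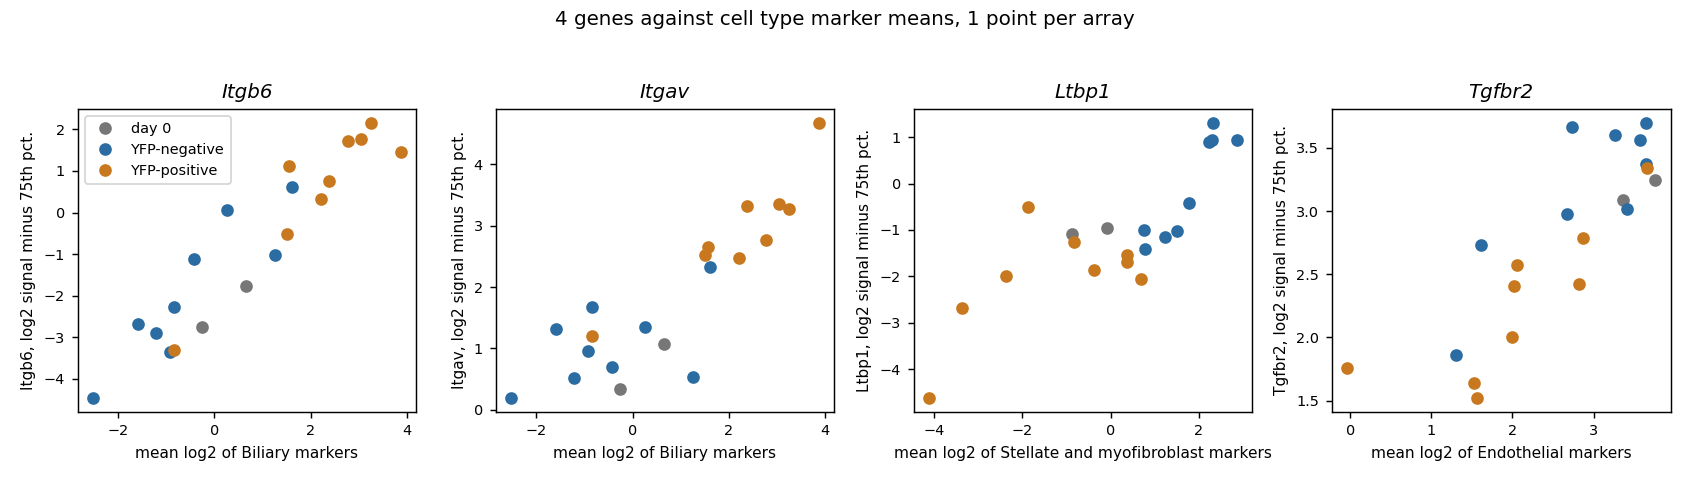
Log2 level of Itgb6, Itgav, Ltbp1 and Tgfbr2 on the vertical axis against the mean log2 level of a marker list on the horizontal axis (10 biliary genes for Itgb6 and Itgav, 8 stellate and myofibroblast genes for Ltbp1, 8 endothelial genes for Tgfbr2), 1 point per array, coloured by fraction. The YFP-positive point among the YFP-negative ones in the Itgb6 panel, at -3.30, is day 3 array 3, and the lowest Ltbp1 point, at -4.62, is YFP-positive day 3 array 4.

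Ltbp1 encodes a latent TGF-beta binding protein, which holds the latent complex in the matrix. Its log2 levels in YFP-positive cells were -1.86, -2.06, -1.69 and -4.62 at day 3, -0.50, -1.55 and -2 at day 7, and -2.69 and -1.26 at day 14. In YFP-negative cells they were -1.41, 0.90 and -1.03 at day 3, 0.93, -1.01 and -1.15 at day 7, and 0.93, -0.42 and 1.31 at day 14. The fractions did not overlap at days 3 and 14, as in 5.44% and 34.2% of genes, and they overlapped at day 7. The difference over the mean of days was -1.86 ± 0.50, 3.62-fold lower (95% interval -2.92 to -0.79), and missed the threshold (adjusted p = 0.0762). With quantile normalization it passed (-1.83, adjusted p = 0.0494), where 1114 of 26650 genes did. By limma Ltbp1 passed in 2 of 27 alternative settings, with adjusted p from 0.0455 to 0.608. Both Ltbp1 probes were lower in YFP-positive cells, by -1.86 and -1.96. Within slides the difference was -0.45 at day 3 and -2.48 and -0.85 at day 7.

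Among YFP-negative arrays the stellate and myofibroblast markers were highest where Ltbp1 was. The 4 YFP-negative arrays with Ltbp1 at 0.90 or more (array 3 of day 3, array 1 of day 7, arrays 1 and 3 of day 14) had marker means of 2.24, 2.30, 2.87 and 2.33, and the other 5 had means of 0.76 to 1.79. YFP-positive day 3 array 4 had the lowest marker mean (-4.12) and the lowest Ltbp1 (-4.62), but the highest YFP-positive Ltbp1 level (-0.50, day 7 array 1) stood beside a marker mean of -1.87, and the highest YFP-positive marker mean (0.68, day 3 array 2) beside Ltbp1 at -2.06. Without that array the Ltbp1 difference was -1.63 (adjusted p = 0.0849). The part of these markers in the difference was not tested.

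Ltbp2 encodes a related matrix protein that associates with elastic fibres and, unlike LTBP1, is not known to bind latent TGF-beta. Its log2 levels were -3 and -2.35 at day 0. YFP-positive cells gave 0.33, -0.94, -1.58 and -0.79 at day 3, 2.63, 0.39 and -0.83 at day 7, and 1.51 and 2.51 at day 14. YFP-negative cells gave -1.96, 0.10 and -2.03 at day 3, 0.75, -1.27 and -2.51 at day 7, and 0.24, -0.14 and 1.65 at day 14. Means were higher at day 14 than at day 3 in both fractions, and each YFP-positive array lay above both day 0 arrays, while YFP-negative day 7 array 4 lay between them. The difference between the fractions was 1.24 ± 0.55 (adjusted p = 0.211), with overlap at every day. Against day 0, Ltbp2 had the largest difference of any member, 3.34 ± 0.90 in YFP-positive cells, 10.1-fold (adjusted p = 0.150), and 2.10 ± 0.89 in YFP-negative cells, 4.28-fold (adjusted p = 0.445). Neither passed. Day 14 minus day 3 was 2.75 ± 0.99 in YFP-positive cells (adjusted p = 0.597) and 1.88 ± 0.93 in YFP-negative cells (adjusted p = 0.999).

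Among the ligand genes, Tgfb1, the most widely expressed isoform, showed the smallest difference of all members. Its log2 levels ran from -4.39 to -2.07 (median -2.44) on 9 YFP-positive arrays and from -4.20 to -0.50 (median -2.95) on 9 YFP-negative arrays, and were -3.72 and -2.48 at day 0. The fractions overlapped at every day. The array carries Tgfb1 as 1 probe on 10 spots, whose SD within an array was 0.03 to 0.52 (median 0.07) on the log2 scale. The difference was -0.05 ± 0.48 with a 95% interval of -1.06 to 0.96 (adjusted p = 0.962). Its sign turned with normexp (0.06) and with the slide as a fixed (0.72) or random block (0.04).

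Tgfb2 encodes an isoform known from epithelia and mesenchyme. YFP-positive cells gave 0.15, 1.25, -1.37 and 0.49 at day 3, 0.99, -0.46 and -0.27 at day 7, and 1.79 and 2.12 at day 14. YFP-negative cells gave -0.41, 0.53 and -1.35, then 0.78, -0.57 and -1.68, then -0.10, -0.52 and 1.30, and day 0 gave 1.25 and -0.16. The YFP-positive day 14 pair held the highest levels of the gene on any array, and the fractions did not overlap at day 14, as in 34.2% of genes. The difference was 0.95 ± 0.46 over the mean of days, 1.93-fold (adjusted p = 0.243), and 1.73 ± 0.86 at day 14 (adjusted p = 0.431). Within YFP-positive cells, day 14 minus day 3 was 1.83 ± 0.82 (adjusted p = 0.75).

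Tgfb3 encodes the third isoform. At day 7 its YFP-positive log2 levels were 0.10, -0.97 and -1.17, and the YFP-negative levels were -1.29, -2.16 and -2.72, with no overlap, as in 9.38% of genes. That difference was 1.37 ± 0.53 (adjusted p = 0.816). At day 3 the sign was the other way, -0.36 ± 0.50, and at day 14 the difference was 0.46 ± 0.59. Over the mean of days it was 0.49 ± 0.31 (adjusted p = 0.381).

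**Figure D3:**
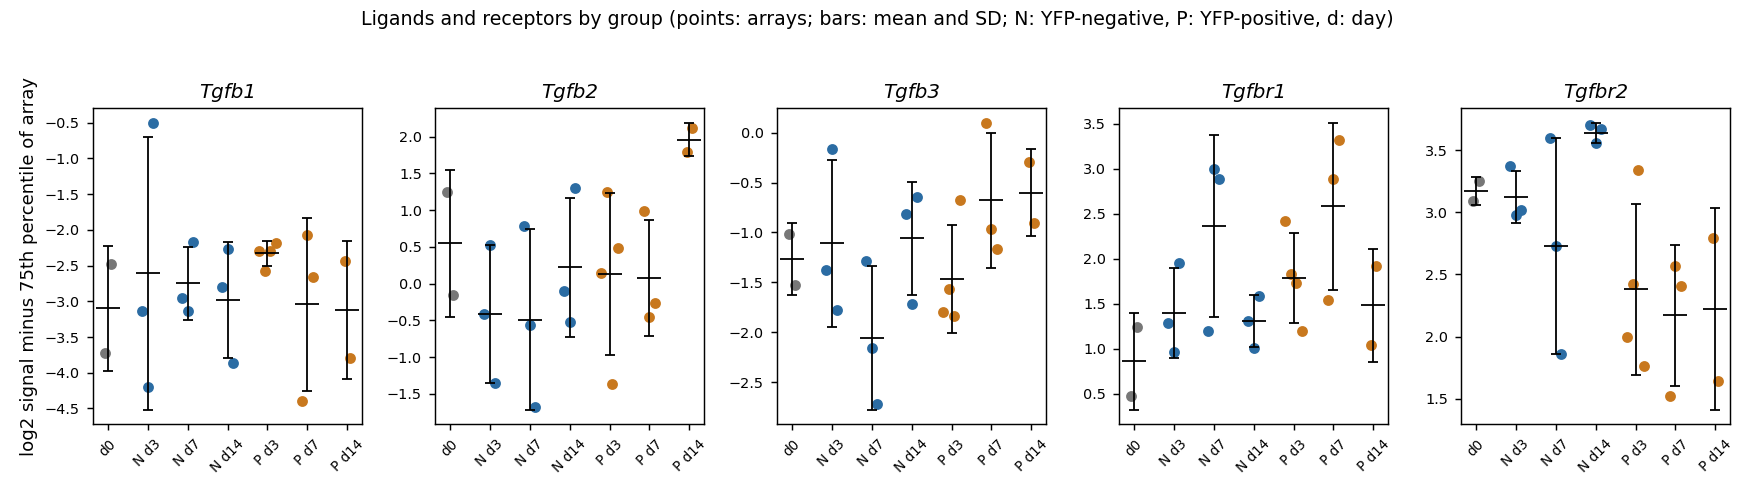
Log2 level (relative to the array's 75th percentile) of Tgfb1, Tgfb2, Tgfb3, Tgfbr1 and Tgfbr2 on 20 arrays in 7 groups, drawn as points with the mean and SD of each group (d0, day 0; N, YFP-negative; P, YFP-positive; d, day). Tgfb1 overlaps between the fractions at every day, the YFP-positive day 14 arrays hold the highest Tgfb2 levels (1.79 and 2.12), and the YFP-negative day 14 arrays hold Tgfbr2 at 3.56 to 3.7.

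Tgfbr2 encodes the ligand-binding receptor. Its log2 levels in YFP-positive cells were 2, 2.42, 3.34 and 1.76 at day 3, 1.52, 2.57 and 2.41 at day 7, and 2.79 and 1.64 at day 14. In YFP-negative cells they were 3.37, 2.98 and 3.02 at day 3, 3.6, 2.73 and 1.86 at day 7, and 3.7, 3.56 and 3.67 at day 14, and day 0 gave 3.09 and 3.25. All YFP-positive arrays but day 3 array 3 lay below both day 0 arrays, and the fractions did not overlap at day 14, as in 34.2% of genes. The difference over the mean of days was -0.91 ± 0.29, 1.88-fold lower (95% interval -1.53 to -0.29, adjusted p = 0.107). Over the mean of days all 3 Tgfbr2 probes were lower in YFP-positive cells, by -0.91 ± 0.29, -0.87 ± 0.82 and -0.84 ± 0.32. The probe at -0.87, A_52_P3811, gave -3.29, 0.06 and 0.63 at days 3, 7 and 14. Within slides the differences were -1.37 at day 3 and -1.04 and 0.55 at day 7, so 1 of the 3 slides went the other way.

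Endothelial markers were low on the arrays where Tgfbr2 was lowest. The arrays with Tgfbr2 at 1.86 or less (in YFP-positive cells array 4 of day 3, array 1 of day 7 and array 2 of day 14, and in YFP-negative cells array 4 of day 7) had endothelial means of -0.04, 1.56, 1.52 and 1.30, while YFP-negative day 7 array 3 had a mean of 1.61 with Tgfbr2 at 2.73. YFP-positive day 3 array 3, the highest YFP-positive array for Tgfbr2, had the highest YFP-positive endothelial mean, 3.66. None of the 8 endothelial markers passed between the fractions over the mean of days, with a median difference of -0.86. Their part in the Tgfbr2 difference was not tested.

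Tgfbr1 encodes the signalling receptor kinase. Its log2 levels ran from 1.04 to 3.32 (median 1.83) on YFP-positive and from 0.96 to 3.00 (median 1.31) on YFP-negative arrays, and were 0.48 and 1.24 at day 0. The difference was 0.26 ± 0.33 (95% interval -0.43 to 0.96, adjusted p = 0.673), and the other probe had the opposite sign (-0.23 ± 0.40), so no direction can be given. The high values, 2.88 and above, were those of YFP-negative day 7 arrays 3 and 4 and YFP-positive day 7 arrays 3 and 4, where the macrophage marker means were 4.34, 4.59, 4.12 and 3.93, the 4 highest of all arrays. The part of macrophage markers was not tested.

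**Figure D4:**
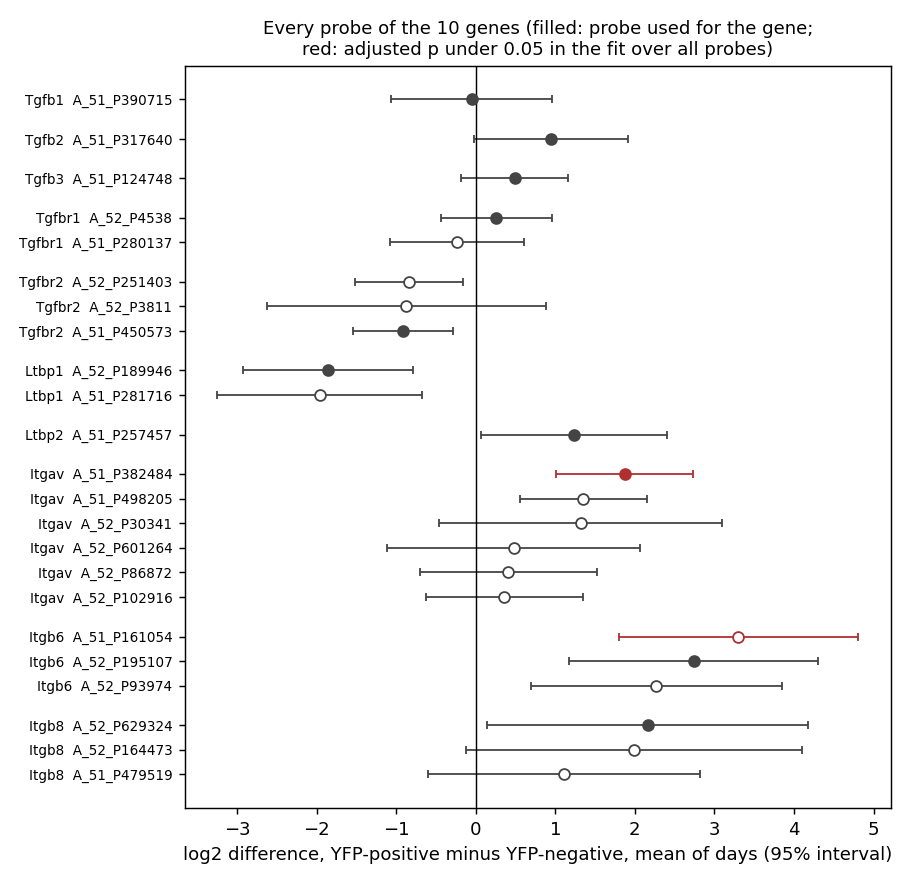
Log2 difference of YFP-positive minus YFP-negative cells over the mean of days, with its 95% interval, for each of the 23 probes, grouped by gene, with filled points for the probe that stood for its gene. The 2 red probes, 1 of Itgav (1.87) and 1 of Itgb6 (3.30), passed in the fit over all probes, and the probes of Ltbp1 and Tgfbr2 all lie below 0.

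At single days no member passed by limma. At day 3, 4 members had an unadjusted p under 0.05 against 2089 genes (7.84%) and 0 genes passed after adjustment (0%). They were Itgav (2.36 ± 0.64), Itgb6 (2.76 ± 1.17), Itgb8 (3.67 ± 1.51) and Ltbp1 (-2.04 ± 0.80), each with adjusted p = 0.6. At day 7 this was 1 member, Tgfb3, against 1405 genes (5.27%), again with 0 genes passing after adjustment (0%). At day 14 there were 3 members, Itgav (1.88 ± 0.77, adjusted p = 0.369), Ltbp1 (-2.58 ± 0.95, adjusted p = 0.353) and Tgfbr2 (-1.42 ± 0.55, adjusted p = 0.357), against 3273 genes (12.3%), of which 6 passed after adjustment (0.0225%). Tgfb2, Tgfbr1, Ltbp2, Itgav, Itgb6 and Itgb8 had a higher mean in YFP-positive cells at each of the 3 days, 6 of 10 members against 28.6% of all genes, but the other Tgfbr1 probe gave -0.21, 0.10 and -0.59. Tgfbr2 and Ltbp1 had a lower mean at each day, 2 of 10 against 20.5%. These signs are those of the probe that stood for each gene, and some dimmer probes broke them. Tgfbr2 A_52_P3811 gave -3.29, 0.06 and 0.63 at days 3, 7 and 14. Itgav probes gave -0.67 (A_52_P102916, day 3), -0.34 (A_52_P30341, day 14) and -0.12 and -0.08 (A_52_P86872, days 7 and 14). Itgb8 A_52_P164473 gave -0.09 at day 7. Whether the difference changed with the day was tested in limma, where 0 members had an unadjusted p under 0.05, the lowest being 0.0884 for Tgfb3, against 732 genes (2.75%), and 0 genes passed after adjustment (0%).

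**Figure D5:**
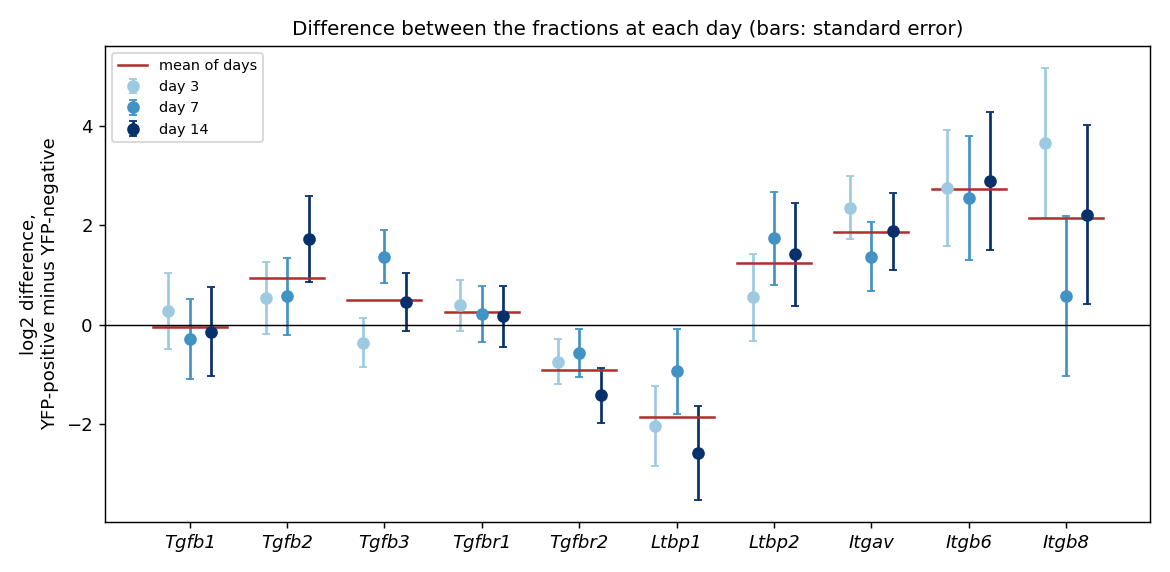
Log2 difference of YFP-positive minus YFP-negative cells at days 3, 7 and 14 for the 10 genes, with standard errors as bars and the mean of days as a red line. Itgb6 stands at 2.76, 2.56 and 2.89 on the 3 days, while Itgb8 stands at 3.67, 0.58 and 2.22.

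Each fraction was then set against day 0, with the days averaged, and both comparisons share the 2 day 0 arrays. In YFP-positive cells 50 genes passed (0.188%) and no member did, and 3 members had an unadjusted p under 0.05 against 3517 genes (13.2%). Besides Ltbp2 these were Itgav (2.23 ± 0.66, 4.68-fold, adjusted p = 0.188) and Itgb6 (3.10 ± 1.20, 8.55-fold, adjusted p = 0.297). With the slide as a fixed block these were 1.45 and 1.44. The median was 0.72 over the members and -0.27 over all genes. In YFP-negative cells 29 genes passed (0.109%) and no member did, and Ltbp2 alone had an unadjusted p under 0.05, against 2886 genes (10.8%). There Itgav stood at 0.36 ± 0.66 on its brightest probe and at 1.57 ± 0.61 on A_51_P498205 (2.97-fold, adjusted p = 0.490 over all probes), which gave 2.93 ± 0.61 in YFP-positive cells (adjusted p = 0.0788). Itgb6 stood at 0.36 ± 1.19, and the medians were 0.34 over the members and -0.41 over all genes. With normexp the median of all genes moved to -0.10 against day 0 in YFP-negative cells and to -0.09 in YFP-positive cells. From day 3 to day 14, 7 genes passed in YFP-positive cells (0.0263%) and 0 in YFP-negative cells (0%, with 985 at an unadjusted p under 0.05), and no member in either. In YFP-positive cells Ltbp2 and Tgfb2 had an unadjusted p under 0.05, against 1695 genes (6.36%). Over the 7 groups together limma's F-test passed 8 genes (0.0300%) and no member, and Itgav, Ltbp2, Ltbp1 and Itgb6 had unadjusted p = 0.00692, 0.0113, 0.0279 and 0.0324, against 3026 genes (11.4%) with one under 0.05.

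Ordered by group mean on the probe that stood for each gene, Itgav and Itgb6 had all 3 YFP-positive groups above all others. Ltbp1 and Tgfbr2 had them below all others. Ltbp2 was highest in YFP-positive day 14 cells (2.01 ± 0.70, SD, n = 2) and lowest at day 0 (-2.67 ± 0.46, SD, n = 2). Tgfbr1 was highest in YFP-positive day 7 cells (2.58 ± 0.93, SD, n = 3) and YFP-negative day 7 cells (2.36 ± 1.01, SD, n = 3) and lowest at day 0 (0.86 ± 0.54, SD, n = 2). Of the 21 pairs of groups of each member, 210 in all, none differed after adjustment over all genes, where 0.0266% of all gene and pair values did. An unadjusted p under 0.05 was found for 42 of the 210, against 8.84% of the values of all genes, from 10 pairs of Itgav and 7 of Ltbp2 to 0 of Tgfb1. As many pairs as for Itgav, or more, were found for 1.19% of genes. Pairs that share a group are not independent. Neighbours in each order were thus not separated.

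The rest of the pathway was read from 3 gene lists. Of 18 co-receptors, matrix stores and other activators, 17 were measured (Lrrc32 was not matched) and none passed between the fractions over the mean of days, with 5 positive, 12 negative and a median of -0.45, against 0.06 over all genes. Tgfbr3, the betaglycan co-receptor, stood at -1.03 ± 0.66. Of 14 intracellular components none passed (4 positive, 10 negative, median -0.19), and Smad2, a receptor-activated SMAD, stood at 0.04 ± 0.19. Of 12 genes known as targets of the pathway, 3 fell, 0 rose and 9 did not pass, with 6 positive, 6 negative and a median of -1.03. Over all genes 0.642% passed in this comparison, with 114 of 26650 lower and 57 higher in YFP-positive cells. Col1a1, the main fibrillar collagen gene, fell by 4.95 on the log2 scale (SE 0.99, adjusted p = 0.0362), the matrix gene Postn by 3.68 (SE 0.74, adjusted p = 0.0366) and the smooth muscle gene Tagln by 2.24 (SE 0.41, adjusted p = 0.0315). The 3 that fell are also known from myofibroblasts, whose marker list was lower in YFP-positive cells in all 8 genes (median -3.23, 4 of 8 passing), and the part of those cells was not tested. In the other comparisons 0 genes of these 3 lists passed.

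Across the 20 arrays, the 3 genes most like each member were found by Pearson's r among 18079 named genes. These r values are descriptions over arrays that share sorts, amplification and slides. Itgb6 ran with Plekhs1, F2rl1 and Krt7, each at 0.96, of which Krt7 is a keratin of bile ducts and F2rl1 encodes a protease-activated receptor. Itgav ran with Prrg4 (0.94), Osbpl3 (0.93) and Met (0.93), the hepatocyte growth factor receptor gene, and Itgb8 with Plce1 (0.90), Arhgef17 (0.90) and Rundc3b (0.89). Ltbp1 ran with Gpc6 (0.88), a glypican gene, Insr (0.87) and Fbln5 (0.87), which encodes an elastic fibre protein, and Ltbp2 with Zfp469 (0.91), Las1l (0.86) and Ptgfrn (0.86). Tgfbr2 ran with Ext2 (0.92), Tmem63a (0.91) and Emcn (0.91), a gene of endothelium that is on the endothelial list, and Tgfbr1 with Fcrls (0.90), Csta2 (0.89) and Siglecf (0.89), of which Fcrls and Siglecf are known from myeloid cells. Tgfb2 was nearest to Trip6 (0.90), Sorbs2 (0.88) and Palmd (0.88), and Tgfb3 to Evc2 (0.84), Fam83e (0.83) and Chpf (0.82). Tgfb1 had the loosest neighbours, Ftl2-ps (0.79), Nmt1 (0.76) and Trappc2l (0.75). Among the members themselves r was highest for Itgav with Itgb6 (0.84), Itgb6 with Itgb8 (0.78), Itgav with Itgb8 (0.77) and Ltbp2 with Itgb6 (0.77). Next came Tgfb2 with Itgb6 (0.71), Tgfb3 (0.68), Itgb8 (0.66) and Ltbp2 (0.62). Tgfb3 followed with Ltbp2 (0.64) and Itgb6 (0.57), and then Tgfbr2 with Ltbp1 (0.56). The lowest r values were -0.75 for Tgfbr2 with Itgav, -0.6 for Tgfb1 with Tgfb2 and -0.58 for Ltbp1 with Itgav.

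The authors' deposited table gives a signed fold and a false discovery rate in percent for each sorted group against day 0. For the brightest Itgb6 probe the authors' deposited table gives 9.485, 19.908 and 41.957 in YFP-positive cells at days 3, 7 and 14, with rates of 8.36, 1.12 and 0.6%, and 2.003, 4.836 and 5.475 in YFP-negative cells, with rates of 54.32, 10.23 and 14.65%. By limma here, YFP-positive day 14 minus day 0 was 4.02 ± 1.53 on the log2 scale for this probe (adjusted p = 0.331). For Ltbp2 the authors' deposited table gives 3.487, 10.059 and 24.876 in YFP-positive cells (6.29, 1.82 and 0.36%) and 1.922, 4.084 and 8.738 in YFP-negative cells (42.44, 11.35 and 3.27%). For the brightest Itgav probe the authors' deposited table gives 5.337, 4.846 and 6.948 in YFP-positive cells (5.38, 0.94 and 0.72%) and 1.206, 2.286 and 1.655 in YFP-negative cells (58.7, 7.06 and 42.71%). For A_51_P498205 of Itgav the authors' deposited table gives 5.056, 7.365 and 11.56 in YFP-positive cells (3.49, 0.67 and 0.46%) and 2.793, 3.695 and 2.999 in YFP-negative cells (4.72, 1.32 and 12.69%). For the brightest Tgfbr2 probe the authors' deposited table gives folds of -2.151, -2.128 and -2.551 in YFP-positive cells (11.27, 6.17 and 3.73%). A minus sign marks a fall. In YFP-negative cells the authors' deposited table gives -1.274, -1.449 and 1.097 for that probe (30.58, 22.25 and 60.28%). The other Tgfbr2 probes have YFP-positive folds there of -1.269, -1.362 and -1.418 (A_52_P251403, 50.38, 23.72 and 37.34%) and -5.814, -1.61 and -2.101 (A_52_P3811, 14.71, 41.32 and 29.42%). The brightest Ltbp1 probe has folds of -1.845, 1.198 and 1.271 in YFP-positive cells in the authors' deposited table (32.95, 56.06 and 44.07%). Its YFP-negative folds there are 1.695, 3.609 and 4.723 (54.32, 11.35 and 6%). YFP-positive Ltbp1 is above day 0 there at days 7 and 14, but its group means here lay below day 0. The method behind these values is not stated, and the arrays behind them may differ from the 20 of 26 samples used here.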

How the data were processed

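Total RNA was amplified and hybridised to Agilent 1-colour mouse arrays (Cy3). The intensity values used are processed signals, which the authors' Feature Extraction software background-subtracted and detrended within each array, per the file headers, without normalizing between arrays. The headers name version 10.5.1.1 and the submitters' processing notes 9.53. The score values of the authors' deposited table are signed folds against day 0 and false discovery rates in percent, of unstated method.

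Log2 signals minus each array's 75th percentile were averaged over spots of a probe, without control and outlier spots. A gene was read from its brightest probe, leaving out probes that fewer than 2 arrays measured well above background. One limma (3.58.1, R 4.3.3) model over 7 groups was fitted to 26650 genes, and another to 39595 probes, with Benjamini-Hochberg adjustment at 0.05. The fit had 13 residual degrees of freedom. Its code was tested on simulated independent arrays with known changes and no slide effect, which checks the code and not the calls made here. The number of arrays limits the precision.

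The 10 genes and all lists were chosen with earlier results of these data known. All 10 are named, and of each pathway list its first gene (not reported here for the target list) and up to 4 genes past the threshold with the largest change between the fractions over the mean of days. The 3 genes most like a member are those with the highest Pearson r over the 20 arrays, leaving out clone names. Alternatives were normexp, quantile normalization, no filter on dim probes, the slide as a fixed or random block, the replicate number as a block, all probes, and leaving out each array. The test of change between days was added after seeing the data. Same-numbered arrays were not paired, since the labels give the numbers no meaning.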

Additional observations from a re-analysis of the deposited data

Results flagged for a closer look

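In YFP-positive day 3 cells, array 4 lay far below the other 3 arrays in both Ltbp1 probes. The gap to the nearest array was 0.921 of the whole range for A_51_P281716 and 0.875 for A_52_P189946, above Dixon's 95% critical value for 4 samples. These were 2 of 23 probes, and chance gives such a gap in about 1 in 20 groups.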

How the results depend on the processing

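Between the fractions over the mean of days, 171 genes passed. With normexp 44 passed (7 of them higher in YFP-positive cells), with quantile normalization 1114 (800 higher, against 57 of 171), with the slide as a fixed block 2, with the replicate block 42 (5 higher) and among all probes 259. Leaving out 1 array gave 16 (YFP-positive day 14 array 1) to 1219 (YFP-positive day 3 array 3). Of the members, 1 passed in the model as reported, 0 with normexp, no filter, either slide block or the replicate block, 2 with quantile normalization or among all probes, and 0 to 4 when an array was left out. Itgav kept its direction in all 27 alternatives and lost its call in 22. Tgfb1 turned to 0.06 with normexp, 0.72 with the slide fixed and 0.04 with it random, and spanned -0.32 to 0.30 over left-out arrays. The cause was not tested. The other 9 members did not pass as reported, so few calls could be lost, and 8 of the alternatives' values, all of Tgfb1, changed sign. Against day 0, YFP-positive Itgb6 and Itgav moved from 3.10 and 2.23 to 1.44 and 1.45 with the slide fixed.

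At day 14, where 6 genes passed, normexp and quantile normalization gave 0, the random slide block and the replicate block 1, all probes 2, and left-out arrays 0 to 61. At days 3 and 7, where 0 passed, left-out arrays gave 0 to 7 and 0 to 4. Against day 0, the 29 genes of YFP-negative cells became 4 with normexp, 15 with quantile normalization, 0 with the slide fixed, 16 with the replicate block and 4 to 74 with arrays left out, and the 50 of YFP-positive cells became 3 with normexp, 5 with the slide fixed, 12 with the replicate block and 6 to 136. From day 3 to 14, the 7 genes of YFP-positive cells became 1 with normexp, 15 with the slide fixed, 3 with the replicate block, 16 among all probes and 5 to 42, and YFP-negative cells gave 0 to 2. Over all groups the 8 genes became 0 with normexp, 2 with the slide fixed and 2 to 47, and the change between days gave 2 genes with the replicate block and 0 to 2. With normexp the median of all genes moved from 0.15 to -0.42 at day 3 and from 0.13 to 0.49 at day 14. After the group mean of each gene was taken off, same-numbered arrays of different groups correlated at -0.24 to 0.39 (median 0 over 43 pairs). Differently numbered arrays correlated at -0.28 to 0.31 (median 0 over 127 pairs). On these deviations 6 of 20 arrays correlated best with an array of their own number, so the replicate block rests on a number alone. With it Itgav gave 1.93 (adjusted p = 0.091).

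Day 0 and YFP-positive day 14 rest on 2 arrays each, and of 7 slides 3 held both fractions. Slides 2, 3 and 5 held YFP-positive but no YFP-negative arrays, and slide 6 held only YFP-negative arrays. Fraction and slide therefore cannot be fully told apart. Of the 23 probes, 2 of Itgb8, 2 of Itgav, 1 of Itgb6 and 1 of Tgfbr2, none of them the probe that stood for its gene, were well above background on 17 to 19 of 20 arrays.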
